A study of Anguilla anguilla with 6 samples.

Results

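Polypeptide GalNAc-transferases are the enzymes that begin mucin-type O-glycosylation. They were followed in ovaries of European eels (Anguilla anguilla) that did or did not respond to hormone treatment. The family was taken as every gene model whose protein description in the authors' deposited table contains the words polypeptide N-acetylgalactosaminyltransferase, which gave 54 models of 45974 in all. They were chosen by that description alone, but the family itself was picked because some of its models stood out between responders and non-responders, so its values in that comparison are given as a description. Of the 54 models, 53 carry a protein name and share 17 names between them, 52 have a p-value, and 30 have a mean over all libraries of at least 5 scaled counts, a scaled count being a read count divided by the library's size factor.

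Ovaries came from 6 farmed eels, 4 classed as responders and 2 as non-responders after 4 weekly gonadotropin injections, which both groups received. Gonadotropins are the pituitary hormones that drive growth of the ovary. The labels do not say what counted as a response, and give neither age nor an uninjected group. Each eel gave 1 mRNA library from pooled pieces of its ovary. The table gives a mean per group, a fold, a p and an adjusted p, and the values below are those group means, so no spread between eels stands beside them. All folds and log2 values are responder over non-responder.

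Mucin-type O-glycans are built in the Golgi apparatus. A polypeptide GalNAc-transferase moves N-acetylgalactosamine from the sugar nucleotide UDP-GalNAc to a serine or threonine of the protein, and other enzymes then extend that first sugar with galactose, N-acetylglucosamine or sialic acid. Vertebrates have many such transferases that differ in the peptides they accept: some act on bare peptide, some prefer a peptide that already carries a GalNAc, and a group made of GALNT8, GALNT9, GALNT17 and GALNT18 shows little or no activity on test peptides in human and mouse studies. The glycans protect proteins from cleavage, give mucins and egg coats their carbohydrate, and modify receptors of the LDL receptor family.

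Responder ovaries had far more transcript of 4 GalNAc-transferase models, 3 named galt8 (GALNT8) and 1 named gltl4 (GalNAc-transferase-like protein 4, GALNT18 in current human naming), and no other model of the family passed. The 4 were 21.4-fold to 32.4-fold higher in the authors' deposited table. All 4 belong by name to the group of transferases with little activity on test peptides, and the remaining members of that group, the abundant gltl3 among them, did not pass. At the authors' adjusted p under 0.05, 4 of the 52 models with a p (7.69%) were higher and 0 were lower, beside 0.121% of all 37072 models with a p called higher and 0.062% called lower. Among the 23266 models with a mean of at least 5, 0.193% were called higher. Without adjustment, 5 members had a p under 0.05, as did 3.67% of all models with a p. That contrast is the one the family was picked from, so nothing is read from the share. In pieces of whole ovary, fewer cells of a type and less RNA per cell cannot be told apart.

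The galt8 model g40645 averaged 814 scaled counts in responders and 36.1 in non-responders by the authors' deposited table (log2 of 4.50 and adjusted p = 3.9e-05). The galt8 model g36679 averaged 571 scaled counts in responders and 26.7 in non-responders by the authors' deposited table (log2 of 4.42 and DESeq adjusted p = 0.00018). The galt8 model g36862 averaged 139 scaled counts in responders and 4.30 in non-responders by the authors' deposited table (log2 of 5.02 and adjusted p = 8.2e-08). All 3 galt8 models thus had low non-responder means above 0, that of g36862 under 5, and responder means of at least 139 scaled counts. Whether each non-responder eel had these transcripts was not analysed here. Summed over the 3, galt8 had 1524 scaled counts in responders and 67.1 in non-responders, a ratio of 22.7. The gltl4 model g35535 averaged 209 scaled counts in responders and 8.67 in non-responders by the authors' deposited table (log2 of 4.59 and adjusted p = 2.4e-06), close in fold to the galt8 models. The called member with the highest adjusted p was g36679, and the first member outside the threshold was a galt2 model (g4711) at adjusted p = 0.70 in the authors' deposited table, so no member lay near 0.05.

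Among the 45 models called higher in the whole table, these 4 ranked 4 to 7 by fold, behind 3 models with larger folds and ahead of the next at 18.5-fold. By p they ranked 2, 6, 10 and 18 of all models with a p in the authors' deposited table. Of the 23266 models with a mean of at least 5, 53 (0.228%) had a fold of at least 21.4, counting 16 that were listed at 0 in non-responders. Of those 53 models 7 were called, the 4 GalNAc-transferases and 3 others. The cut at 21.4 is the lowest fold of the 4, so their place among the 7 was set in advance and nothing is read from it.

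**Figure D1:**
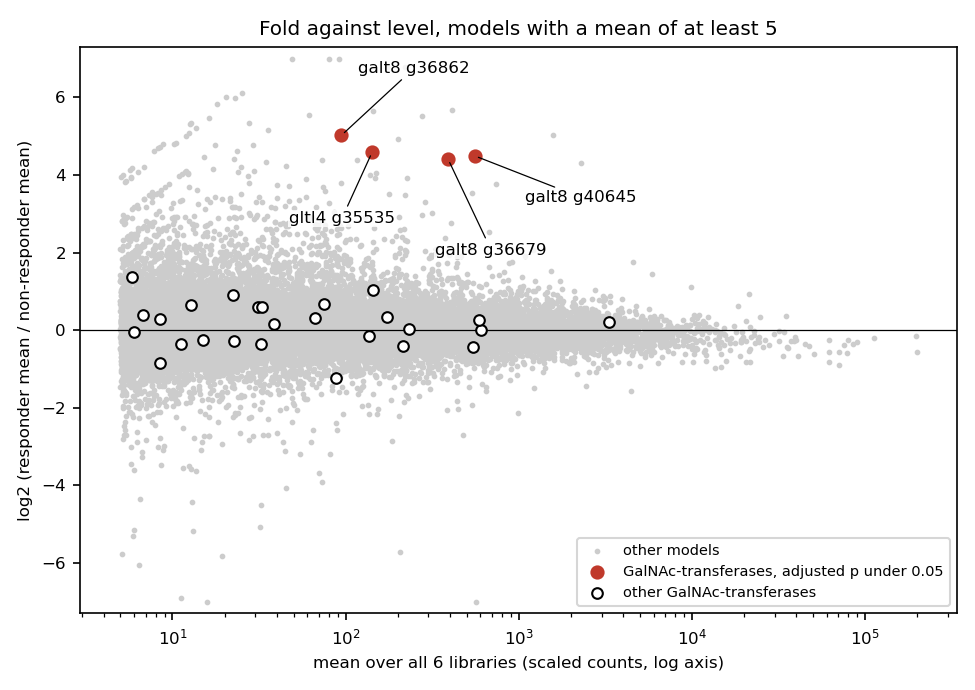
Log2 of the responder mean over the non-responder mean (vertical axis) against the mean over all 6 libraries in scaled counts (horizontal log axis), for models with a mean of at least 5. Red points are the 4 GalNAc-transferase models past adjusted p 0.05, open points the other 26, grey points all other models, drawn at the upper or lower edge where they lie beyond it and left out where 1 group is listed at 0. The red points sit between log2 4.42 and 5.02, the open points between -1.23 and 1.37.

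The transcripts of the 4 models measure 168 bases (g36862), 215 bases (g35535), 411 bases (g36679) and 730 bases (g40645), against a median of 423.5 bases over the 54 members and 726.5 bases over all models. All 3 galt8 models and g35535 have a human protein as best match, with a deposited similarity to that match of 0.56 for g36862 and 0.74 for g36679, inside the range of 0.53 to 0.92 over the named family. Several models can carry 1 name as pieces of 1 transcript or as separate genes, and the table gives no positions that would tell these apart, so the 4 models need not be 4 genes. Of the other members, 33 were no longer than 730 bases, 10 of them had a mean of at least 5, and these 10 lay between log2 -0.84 and 1.37. The means of these 10 over all libraries were at most 75.0 scaled counts, against 94.4 to 555 for the 4 called models. Those means include the responder values by which the 4 were called. In non-responders the 4 had 4.30 to 36.1 scaled counts, inside the range of 2.82 to 53.5 of the 10. In the whole table, 0.0705% of the 15608 tested models of that length or shorter were called higher, the 4 among them. The part of length in the 4 calls was not tested. None of the 16 members longer than 1000 bases was called, and their log2 values ran from -1.23 to 1.05. Over all models with a p, 0.121% were called higher. At that share few or no calls would be found among 16 models, so nothing is read from their absence. The transferase activity term of the Gene Ontology was attached to all 4 models and to 52 of the 54.

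Divided by length, the 4 models stood at the top of the family in responders. Per kb of transcript, g36679 had 1389 scaled counts in responders against 65.0 in non-responders. On the same scale g40645 had 1115 in responders against 49.4 in non-responders. The gltl4 model g35535 had 973 per kb in responders against 40.3 in non-responders, and g36862 had 830 in responders against 25.6 in non-responders. The 4 levels per kb lay within 1.67-fold of each other in responders and within 2.54-fold in non-responders. Of the 30 members with a mean of at least 5 they held ranks 1, 2, 4 and 5 in responders and ranks 12, 16, 17 and 22 in non-responders. Rank 3 in responders and rank 1 in non-responders belonged to gltl3. With 1 mean per group and no spread, neighbours in this order cannot be told apart, and division by length is rough for models shorter than a sequenced fragment.

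**Figure D2:**
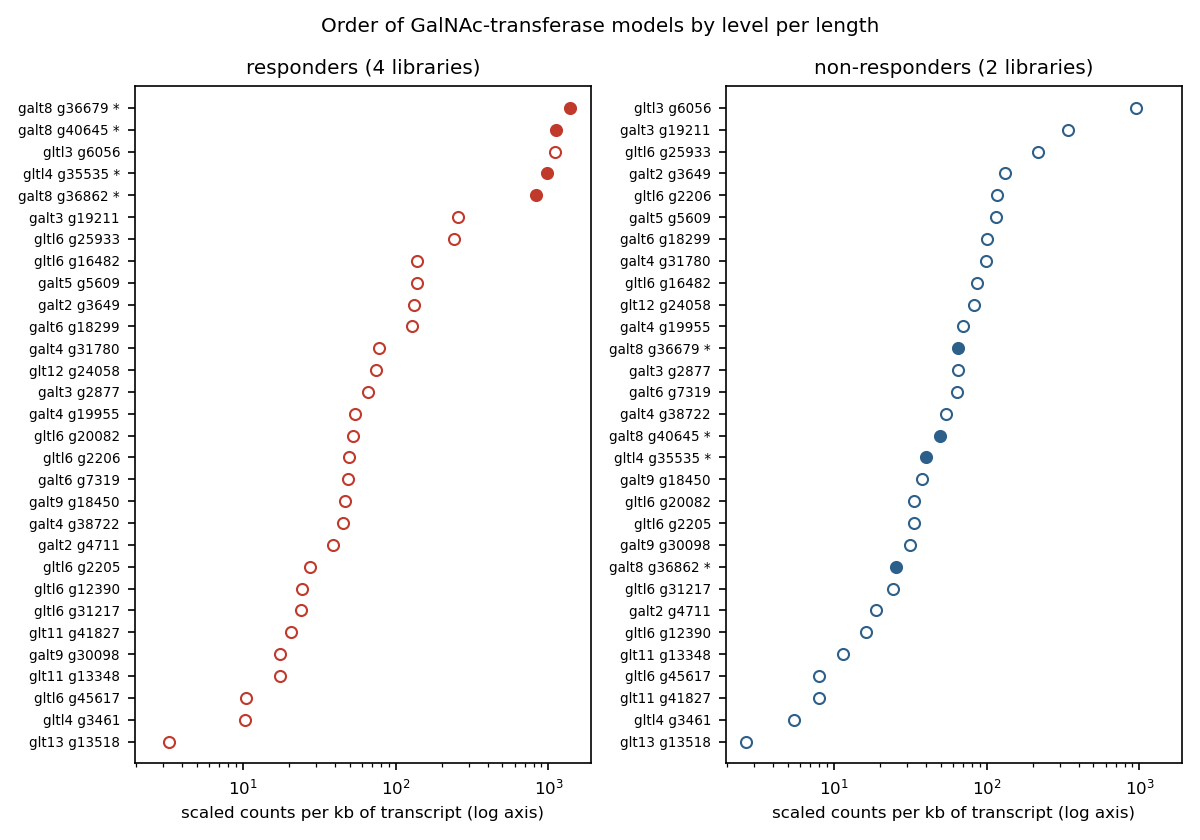
Scaled counts per kb of transcript (horizontal log axis) for the 30 members with a mean of at least 5, ordered from the highest down, in responders (left, red) and non-responders (right, blue). Filled points and asterisks mark the 4 models past adjusted p 0.05, which lie between 830 and 1389 per kb in responders and between 25.6 and 65.0 in non-responders.

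The rest of the low-activity group did not pass. The member with the most scaled counts was gltl3 (g6056; GALNT17 in current human naming), a model of 3126 bases, with 3459 scaled counts in responders and 2985 in non-responders by the authors' deposited table (log2 0.21). That single model held 41.4% of the summed family level in responders and 48.0% in non-responders. A second, longer gltl4 model (g3461, 2550 bases) had 26.5 scaled counts in responders and 14.1 in non-responders (log2 0.91), and the third (g3390) had 2.38 in responders and 1.64 in non-responders, by the authors' deposited table. The other gltl4 models thus had smaller folds than g35535 and did not pass. For galt9 (GALNT9), g18450 had 71.1 scaled counts in responders and 56.9 in non-responders, and g30098 had 6.67 in responders and 11.9 in non-responders, by the authors' deposited table. The 6 models of this group that were not called summed to 3570 scaled counts in responders and 3074 in non-responders, a ratio of 1.16.

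**Figure D3:**
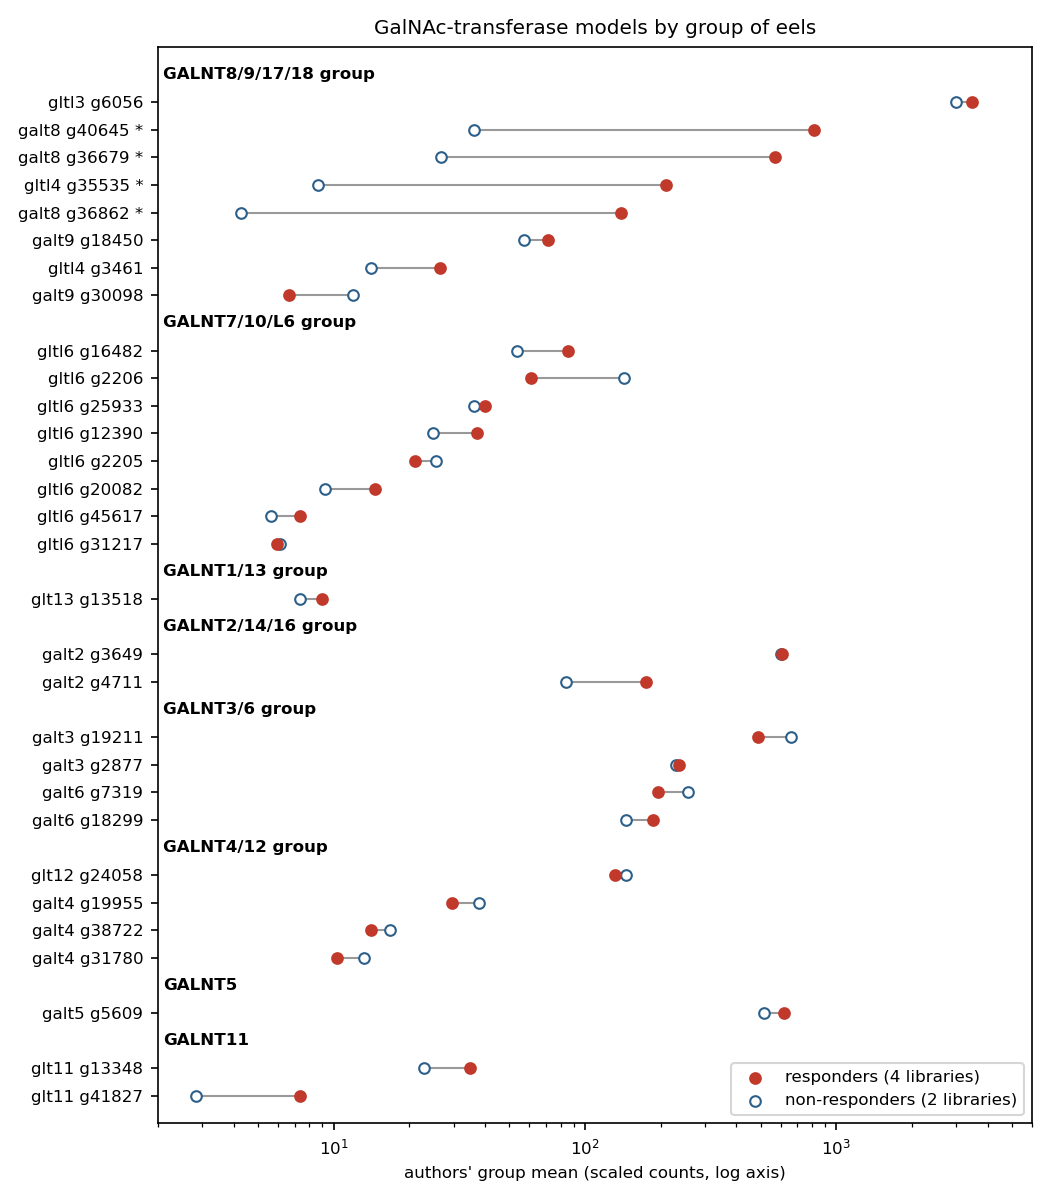
Authors' group means in scaled counts (horizontal log axis) of the 30 GalNAc-transferase models with a mean of at least 5, set out by subgroup, with responders as filled red points and non-responders as open blue points. Asterisks mark the 4 models past adjusted p 0.05, whose points lie 21.4-fold to 32.4-fold apart, while the other pairs lie at folds between 0.43 and 2.59.

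By name gltl6 (GALNTL6) is a relative of GALNT7 and GALNT10, transferases that prefer peptides already carrying a GalNAc. It had 9 models, 8 of them with a mean of at least 5, of which 5 lay above and 3 below a ratio of 1 and none passed. The lowest ratio of all members with a mean of at least 5 was that of g2206, with 61.0 scaled counts in responders and 143 in non-responders by the authors' deposited table (log2 -1.23, unadjusted p = 0.24). Its consecutive identifier, g2205, also a gltl6 model, had 21.1 in responders and 25.5 in non-responders by the authors' deposited table. The gltl6 model with the smallest p, g16482, leaned the other way, with 85.7 scaled counts in responders and 53.5 in non-responders by the authors' deposited table (log2 0.68, unadjusted p = 0.14). Models of 1 name therefore pointed both ways without passing. The other gltl6 models were g25933 at 40.1 in responders and 36.2 in non-responders, g12390 at 37.2 in responders and 24.8 in non-responders, g20082 at 14.6 in responders and 9.23 in non-responders, g45617 at 7.33 in responders and 5.63 in non-responders, and g31217 at 5.95 in responders and 6.10 in non-responders, by the authors' deposited table. Both glt10 models (GALNT10) had a mean under 5.

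None of the transferases known to act on bare peptides passed, beside 0.183% of all models with a p called in either direction. At that share few or no calls would be found among so few models, so nothing is read from this. GALNT2, a broadly expressed initiator, had the model closest to the threshold, g4711, with 174 scaled counts in responders and 84.3 in non-responders by the authors' deposited table (log2 1.05, unadjusted p = 0.0088, adjusted p = 0.70). The second galt2 model, g3649, lay close to a ratio of 1, with 610 in responders and 604.6 in non-responders by the authors' deposited table (log2 0.01). GALNT5 had 1 model (g5609) with 620.4 in responders and 517 in non-responders by the authors' deposited table (log2 0.26). GALNT11, which glycosylates receptors of the LDL receptor family in mammals, had 34.999 scaled counts in responders and 22.9 in non-responders for g13348, and 7.31 in responders and 2.82 in non-responders for g41827 (log2 1.37), the highest log2 of any uncalled member with a mean of at least 5, in the authors' deposited table. Neither of these passed, and the other 2 GALNT11 models had a mean under 5. The mean over all libraries counts 4 responders and 2 non-responders, so g41827 meets the minimum of 5 through its responder mean.

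GALNT3 and GALNT6, close relatives of each other, pointed in both directions. GALNT3, which in humans glycosylates the hormone FGF23 and keeps it from being cleaved, was led by g19211 with 488 scaled counts in responders and 657.5 in non-responders by the authors' deposited table (log2 -0.43, unadjusted p = 0.17). A longer galt3 model, g2877, had 235.5 in responders and 229 in non-responders. For galt6, g7319 had 195 scaled counts in responders and 257 in non-responders, while g18299 had 186 in responders and 146 in non-responders, by the authors' deposited table. None of these 4 passed. All 4 models of GALNT4 and GALNT12 with a mean of at least 5 lay below a ratio of 1, and none passed. Their means were 131 in responders and 146 in non-responders for glt12 (g24058), and 29.5 in responders and 37.9 in non-responders for galt4 (g19955), with g38722 at 14.1 in responders and 16.7 in non-responders and g31780 at 10.3 in responders and 13.1 in non-responders, by the authors' deposited table. All 4 log2 values lay between -0.36 and -0.15. Over all models with a mean of at least 5, 50.6% lay above a ratio of 1. The 3 galt4 models among the 4 can be pieces of 1 transcript. A further galt4 model, with a mean under 5, lay above a ratio of 1. Nothing is read from the shared direction.

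Transcripts named for GALNT1, the widespread initiator of mammals, had few scaled counts here, in models of 167 to 584 bases. All 8 galt1 models had a mean under 5, and together they summed to 16.2 scaled counts in responders and 15.0 in non-responders. Its near relative GALNT13 had 8.99 in responders and 7.36 in non-responders for g13518 in the authors' deposited table. Per kb of transcript, g13518 (2755 bases) had 3.26 in responders and 2.67 in non-responders. On that scale the galt1 models ran from 0 for g27696 to 18.7 in responders and 15.5 in non-responders for g37259. In all, 24 members had a mean under 5, the highest of them at 4.74 scaled counts, including every model named galt1, glt10, glt14 (GALNT14) and gltl1 (GALNT16 in current human naming) and the model with no protein name. Of these 24, 2 were at 0 in both groups and have no p, a further 3 were listed at 0 in non-responders alone and 1 in responders alone. None of the 24 was called. All 45 models called higher in the whole table had a mean of at least 5, so nothing is read from the absence of calls here.

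Summed over all 54 models, the family had 8355 scaled counts in responders and 6224 in non-responders, a ratio of 1.34. The family made up 0.0714% of all scaled counts in responders and 0.0493% in non-responders. The 4 called models were together 1657 scaled counts higher in responders, equal to 77.8% of the family's net difference of 2131. That net holds falls as well as rises among the uncalled members. The gltl3 model g6056 added 474 to it and the galt3 model g19211 took 170 away. The 4 called models held 20.7% of the family sum in responders against 1.22% in non-responders. Without these 4 the sum was 6622 scaled counts in responders and 6148 in non-responders, a ratio of 1.08. Of the 30 members with a mean of at least 5, 20 lay above and 10 below a ratio of 1. The 20 include the 4 called models. The median log2 of the 30 was 0.28. The same over all models with such a mean was 50.6% above a ratio of 1 and a median log2 of 0.01. The family was picked from this contrast because some of its models stood out, so nothing is read from the difference. The 26 uncalled members had a median log2 of 0.18, and 23 of them lay within a fold of 0.5 to 2.

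In the lists of enzymes and proteins around the transferases, no model was called in either direction. Across 8 lists of the O-glycosylation pathway, with 225 models of which 112 had a mean of at least 5, 0 passed the authors' adjusted p, beside 0.183% of all models with a p called in either direction. At that share few or no calls would be found among so few models, so nothing is read from the 0. RENBP, an epimerase that stands in none of the lists, was called higher and is given under the other observations. Unadjusted p-values under 0.05 numbered 2 in the sialyltransferase list, 1 in the UDP-GalNAc supply list, 1 among other starters of protein O-glycosylation and 0 in each of the other 5, beside 3.67% of all models. List medians of log2 lay between -0.14 and 0.43, at a mean of at least 5. Over all models with such a mean the median was 0.01, and 50.6% lay above a ratio of 1.

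Enzymes that add to the first GalNAc come next. The core extension list had 5 models above and 3 below a ratio of 1, its median log2 being 0.16. Its smallest p-values belonged to a C1GALT1 model, the galactosyltransferase that makes core 1 (g36845, 9.75 scaled counts in responders and 17.9 in non-responders, unadjusted p = 0.15), and to B3GNT3, which extends core 1 with N-acetylglucosamine (g1873, 577 in responders and 264 in non-responders, unadjusted p = 0.15), by the authors' deposited table. The sialyltransferase list had 6 above and 4 below and a median log2 of 0.43. ST3GAL1, which caps core 1 with sialic acid, had 387 scaled counts in responders and 143 in non-responders by the authors' deposited table (g4025, log2 1.44, unadjusted p = 0.0043, adjusted p = 0.52). ST8SIA6, an alpha-2,8-sialyltransferase, had 31.4 in responders and 71.5 in non-responders by the authors' deposited table (g17096, log2 -1.19, unadjusted p = 0.0049, adjusted p = 0.54). Neither passed.

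UDP-GalNAc is the sugar donor that these transferases use. The supply list had 11 models above and 3 below a ratio of 1, and its median log2 was 0.33. PGM3, a mutase on the way to UDP-GlcNAc, had 230 scaled counts in responders and 127 in non-responders by the authors' deposited table (g7134, log2 0.86, unadjusted p = 0.021, adjusted p = 1). UAP1L1, a relative of the pyrophosphorylase that makes UDP-GlcNAc, had 160 in responders and 76.2 in non-responders by the authors' deposited table (g12694, log2 1.07 with adjusted p = 1). The list for lysosomal removal had 9 above and 6 below and a median log2 of 0.26, with models of beta-galactosidase GLB1 at the smallest p-values, g3391 with 231 in responders and 156 in non-responders and g2200 with 45.5 in responders and 29.0 in non-responders, by the authors' deposited table. Neither GLB1 model passed.

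Transferases that use GalNAc on other acceptors, and enzymes that begin other kinds of O-glycan, did not pass either. The list of other GalNAc-transferases had 10 models above and 6 below a ratio of 1, and its median log2 was 0.21, with CHSY1, a chondroitin synthase, at 24.8 scaled counts in responders and 10.3 in non-responders (g2473), and a B4GALNT2 model (g25582) listed at 0 in responders and at 2.03 in non-responders, by the authors' deposited table. That B4GALNT2 model had a mean under 5 and so lies outside those counts and that median. The list of other starters had 9 above and 14 below and a median log2 of -0.07, which became 0.04 when both groups were rescaled to equal sums. POMT2, which begins O-mannosylation, had 461 scaled counts in responders and 955 in non-responders by the authors' deposited table (g17749, log2 -1.05, unadjusted p = 0.006, adjusted p = 0.58). OGT, which places single GlcNAc residues on cytosolic and nuclear proteins, had 113 in responders and 182 in non-responders by the authors' deposited table (g888, log2 -0.68).

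Carriers of the glycans were measured in a further pair of lists. Mucins and mucin-like proteins had 6 models above and 2 below a ratio of 1, and their median log2 was 0.14. Without the filter on the mean that median was 0.0026. The smallest p-values there came from the secreted mucins MUC5AC (g34568, 1.91 scaled counts in responders and 8.23 in non-responders) and MUC5B (g28800, 0.75 in responders and 3.37 in non-responders), by the authors' deposited table. Both of these models had a mean under 5 and so lie outside the counts and median just given. The list of proteins known from mammals to carry such glycans had 5 above and 13 below and a median log2 of -0.14. Its smallest p-values belonged to a fibronectin model (g31916, 0.48 in responders and 4.15 in non-responders) and a VLDLR model (g40667, 283 in responders and 426 in non-responders), VLDLR being the receptor for yolk precursor in fish oocytes, in the authors' deposited table. The fibronectin model had a mean under 5, outside the counts and median above. Other VLDLR models had more scaled counts, g14276 with 6335 in responders and 8180 in non-responders and g14275 with 5190 in responders and 5811 in non-responders. A further one, g1875, lay above a ratio of 1, with 1840 in responders and 1279 in non-responders. None of these passed.

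**Figure D4:**
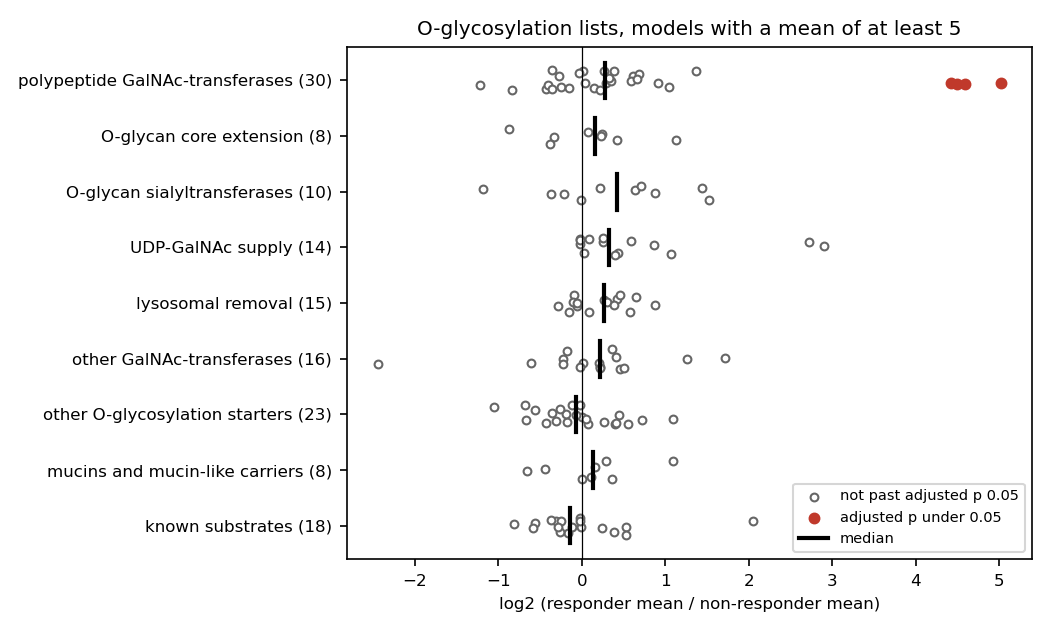
Log2 of the responder mean over the non-responder mean (horizontal axis) for models with a mean of at least 5 in the GalNAc-transferase family (top row) and in 8 lists of the pathway, with the number of models after each name. Red points passed adjusted p 0.05, open points did not, and bars mark medians, which lie between -0.14 and 0.43. Red points appear in the top row, at log2 4.42 to 5.02.

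Marker lists of the cells an ovary can hold were set beside these values. Oocyte and egg envelope genes were present and made up the largest sum of these lists, with 451571 scaled counts in responders and 674376 in non-responders over 20 models of 8 matched genes, 19 of them below a ratio of 1. Their smallest p-values were those of ZAR1 (g14809, 11238 in responders and 21663 in non-responders) and ZP4 (g11772, 1069 in responders and 2095 in non-responders), by the authors' deposited table. Markers of granulosa and theca cells, the steroid-making cells around the oocyte, summed to 1219 scaled counts in responders and 625 in non-responders over 18 models, a ratio of 1.95. At a mean of at least 5, 7 of its models exceeded a ratio of 1 and 2 did not. The smallest p-values of that list came from CYP17A1, a steroid hydroxylase, with 556 in responders and 222 in non-responders (g10692) and 392.2 in responders and 179 in non-responders (g22995), by the authors' deposited table. The 3 CYP17A1 models held 961 of the responder sum and 406 of the non-responder sum, and without them the ratio was 1.18. Both models of the granulosa aromatase CYP19A1 lay below a ratio of 1, g9348 with 11.9 in responders and 23.0 in non-responders and g9349 with 21.2 in responders and 24.3 in non-responders, by the authors' deposited table.

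Single genes also set the ratios of sums of the endothelial, erythrocyte and adipocyte lists. The leukocyte ratio of 1.34 was 1.24 without SPI1, and the smooth muscle ratio of 0.98 was 1.01 without CNN1. Endothelial markers summed to 170 in responders and 242 in non-responders. At a mean of at least 5, 4 of its models exceeded a ratio of 1 and 4 did not. The smallest p-values there belonged to CDH5, an adhesion protein of vessel walls, at g17569 with 37.4 in responders and 95.4 in non-responders and g38811 with 4.52 in responders and 13.999 in non-responders, while its remaining model, g3545, had 7.21 in responders and 6.03 in non-responders, by the authors' deposited table. Without the 3 CDH5 models the endothelial ratio was 0.95. Leukocyte markers summed to 116 in responders and 86.7 in non-responders, with SPI1 (g13044) at 35.7 in responders and 21.8 in non-responders and CORO1A (g4014) at 8.24 in responders and 3.45 in non-responders, by the authors' deposited table. Erythrocyte markers had a ratio of sums of 1.09 although 8 of 10 models with a mean of at least 5 lay below 1, and without the beta-globin models (HBB) it was 0.83. One of these, g34146, had 413 scaled counts in responders and 41.9 in non-responders by the authors' deposited table and did not pass. Adipocyte markers had a ratio of sums of 0.98, set by FABP4 (g3192), but 6 of 7 models lay above 1 at a median log2 of 0.92, and without FABP4 the sum was 335 in responders and 141 in non-responders. Smooth muscle markers had a ratio of sums of 0.98, where 8 models exceeded 1 and 2 did not. In these last 3 lists the smallest p-values belonged to SLC4A1 (g2522) and CAHZ (g17409), to PLIN1 (g8968) and PPARG (g9), and to CNN1 (g14833) and MYL9 (g17901), at log2 values between -1.15 and 1.76. No marker gene that was matched was at 0 in every model. Of the 105 marker models, some of which have no p, 0 passed, beside 0.183% of all models with a p called in either direction. Nothing is read from that 0. An unadjusted p under 0.05 was held by 3 of 20 oocyte models and 1 endothelial model, beside 3.67% of all models. The part of these shifts in the folds of the 4 transferase models was not tested.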

How the data were processed

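Total RNA of pooled ovary pieces was made into 1 mRNA library per eel, per the labels' protocols. Which aligner, counter and genome the submitters used, and in which versions, is not given in the sources used here. The authors deposited 1 table whose name credits DESeq, holding a mean signal (per the file headers the base mean of DESeq, that is size-factor scaled counts) over all libraries and for either condition, their ratio as a fold, and a p-value and adjusted p-value per model. Transcript lengths in bases and a similarity to the best protein match are also deposited.

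Condition A enters the mean over all libraries with a weight of 33.3% and B with 66.7% (largest deviation 3.5e-10), so A was read as the 2 non-responders and B as the 4 responders. A further 6 columns with values per library match no library's label and were not used, so depth and spread per library were not analysed here.

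The log2 of the fold was computed with Python 3.11.15, and models were called at a deposited adjusted p under 0.05 (no test of counts was run). Levels were divided by transcript length to compare models. Members with a mean of at least 5 were named and the others summarised, except the gltl4 model g3390, named after its values were seen. From each list the called models and those with the smallest p, 2 per list, were named; other marker models were named after their values were seen. The members and lists were chosen with earlier results of these data known. Subgroups follow textbook relations of the human enzymes. Of the model identifiers, 0 matched the RefSeq gene table (assembly fAngAng1.pri), so names are the deposited ones. Benjamini-Hochberg re-adjustment was tested on simulated p-values.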

Additional observations from a re-analysis of the deposited data

How the results depend on the processing

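The count of 4 higher and 0 lower GalNAc-transferase models was also found at a threshold of 0.1, after re-adjusting p where the mean was at least 5 or 20, and when 4 GALNT7 models that the Gene Ontology term or protein name adds were counted in. The 4 had a deposited adjusted p of at most 0.00018 and the next member, g4711, one of 0.70 (0.45 and 0.37 after the 2 re-adjustments). With no member near the threshold these settings could hardly change the count, so nothing is read from its staying the same. The median log2 of the members, 0.28, was 0.21 without a filter on the mean, 0.29 at a mean of at least 20 and 0.39 with both groups rescaled to equal sums, which adds 0.11 to every log2. The ratio of family sums, 1.34, was 1.08 without the called models, 1.45 with equal sums and 2.41 per kb, where short models weigh more. All 8 pathway lists had 0 calls also after re-adjustment where the mean was at least 20. The sign of a list median changed in 2 of the 8 without a filter (core extension, -0.23, and other GalNAc-transferases, -0.0075) and in 1 with equal sums (other starters of O-glycosylation, 0.04). Leaving out of each marker list the gene that differed most, chosen after seeing the data, moved the ratio of sums to between 0.69 and 2.38. Leaving out a library, another normalization of counts and DESeq2 were not run, since the columns with values per library could not be matched to the labels. The labels give no pairing of eels, each of which gave 1 library and belongs to 1 group, so no paired analysis was run. With 2 non-responders and no spread shown, how far single eels carry the 4 folds was not analysed here.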

Other observations

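GALNT7, a transferase that prefers peptides already carrying a GalNAc, is described in the table without the word polypeptide and so lies outside the family as taken here. It had 4 models and none passed. The largest, g16481, had 214 scaled counts in responders and 231 in non-responders by the authors' deposited table (log2 -0.11), and g12977 had 94.8 in responders and 57.3 in non-responders (log2 0.73, unadjusted p = 0.09). Its identifier g16481 is followed by that of the gltl6 model g16482, and the RefSeq gene table of the species (assembly fAngAng1.pri) lists galnt7 and galntl6 side by side on 1 chromosome with 0 genes between them.

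The genes of this paragraph were chosen after their values were seen. RENBP, an epimerase that acts on N-acetylglucosamine, was called higher, with 115 scaled counts in responders and 31.8 in non-responders by the authors' deposited table (g5063, log2 1.85, adjusted p = 0.028), and it stands in none of the lists. GFPT2, a relative of the enzyme that commits sugar to the amino sugar pathway, had models g26501 (12.3 in responders and 1.64 in non-responders, log2 2.91) and g16127 (10.3 in responders and 1.56 in non-responders, log2 2.72) by the authors' deposited table, and neither passed. Its other models, g23894, g26635 and g31937, had means over all libraries of 0.81, 0.91 and 0.87 scaled counts. Of these, g23894 and g26635 lay below a ratio of 1 and g31937 above it. A model named for the human GALNT3 substrate FGF23 was well expressed, with 658 scaled counts in responders and 779 in non-responders by the authors' deposited table (g15850, log2 -0.24).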
